A study of Arabidopsis thaliana with 6 samples.

Results

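The mock-treated inflorescence apex of Arabidopsis thaliana was described on its own, as the state of the tissue without induction of AP2m3. Its members are the 3 mock libraries of the count table, out of 6 libraries in all, and all 28775 loci in that table. AP2m3 is a form of the flowering regulator APETALA2 (AP2) carrying changes that let it escape the microRNA miR172, and in the other 3 libraries dexamethasone had switched it on. Plants of both groups were kept in long days (16 h light, 8 h dark, 21 °C), received mock or dexamethasone 2 weeks after bolting, and had their apices cut 6 to 8 h later, once the flower primordia that could be seen had been taken off. The labels name neither the construct and its promoter nor the line that the plants carried, and do not say whether the 3 mock samples were separate pools of plants, so the spread below is that between these libraries and may be technical. The mock columns, named CT1, CT2 and CT3, could not be tied to single samples and are called by those names. No dexamethasone value was tested against a mock value.

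The inflorescence apex holds the shoot meristem, a small dome of dividing cells that produces flower primordia on its flanks. WUSCHEL (WUS), made in the organizing centre, keeps the stem cells above it, and the peptide CLAVATA3 (CLV3), made by the stem cells, limits WUS through receptor kinases. KNOX proteins such as SHOOT MERISTEMLESS (STM) keep the dome undifferentiated, TERMINAL FLOWER 1 (TFL1) keeps it from turning into a flower, and LEAFY (LFY) and APETALA1 (AP1) turn the flanks into flowers.

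The mock libraries held 1633571 (CT1), 2178975 (CT2) and 2196781 (CT3) counts, a shallow depth at which 3 counts correspond to 1.84, 1.38 and 1.37 CPM (counts scaled to equal library totals in the standard way). A locus was taken as detected at a mean of at least 1 CPM with a count in every mock library. By that rule 18232 loci were detected (63.4%), 7271 had 0 counts in all 3 libraries (25.3%) and 3272 lay between. Counts were spread over many genes. It took 1856 genes to hold 50% of the counts, the top 20 genes held 5.52% to 5.91% of a library, and chloroplast and mitochondrial loci held 0.036% to 0.069%. Between genes, levels are compared only as CPM per kilobase of exon (RPKM), given as mean ± SD over the 3 libraries.

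GRP7, a glycine-rich RNA-binding protein whose transcript cycles with the clock, was the most abundant transcript at 7589 ± 1068 RPKM. It had 8001 CPM in CT1, 10270.4 in CT2 and 8252 in CT3, so CT2 lay above the other two. Storage and defence genes were also among the 20 most abundant. VSP1, second to GRP7, and VSP2, vegetative storage proteins of the jasmonate response, reached 4469 ± 599.6 and 2025 ± 467 RPKM. The beta-glucosidase gene BGLU18 reached 2055 ± 394 RPKM and the myrosinase gene TGG2, which cleaves glucosinolates, 1208 ± 323 RPKM. Photosynthesis was represented by RBCS1A, a Rubisco small subunit, at 3325 ± 183 RPKM and by LHCB1.3, a light-harvesting antenna protein, at 2637 ± 522 RPKM. The rest of the 20 most abundant genes were the metallothionein MT2A (2698 ± 708 RPKM), the lipid transfer proteins LTP6 and LP1, TCTP, LCR69, the cold-responsive KIN2 (1790.1 ± 280.3 RPKM), AT1G13930, the thiamine synthesis enzyme THI1, GSTF9, AT4G29030, NDPK1 and the ribosomal protein genes AT4G27090 and AT5G20290.

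All but 1 of the listed stem cell, meristem and organ boundary genes were detected, some of them at few counts. Of 19 stem cell and meristem genes, 18 were detected, and CLV3 had 0 counts in every mock library, which allows up to 3 counts per library. CLV3 was also at 0 in the 3 dexamethasone libraries. WUS was counted 10, 10 and 8 times in CT1, CT2 and CT3, too few for the test of spread. STM, which marks the whole dome, had 64.9, 68.4 and 60.1 CPM, a spread that did not exceed counting noise. BAM1, a receptor kinase related to CLV1, had the highest level of the list at 62.7 ± 14.5 RPKM, above CLV1 itself at 15.6 ± 2.62 RPKM. The KNOX gene KNAT1 reached 39.7 ± 8.68 RPKM and HAM1, a GRAS protein that works with WUS, 46.3 ± 3.77 RPKM. All 10 organ boundary genes were detected, at low levels: LOF1 was highest at 18 ± 3.54 RPKM, LAS lowest at 1.34 ± 0.475 RPKM, and CUC1, CUC2 and CUC3, which separate organs, lay between 12.9 and 13.9 RPKM.

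Flower genes were expressed throughout. All 19 floral identity genes were detected, with the E-class gene SEP2 highest at 193 ± 9.19 RPKM and the ovule identity gene STK lowest at 1.07 ± 0.748 RPKM. AP1 had 206, 202 and 249 CPM. The petal and stamen gene PI had 170, 198 and 158 CPM, and the stamen and carpel gene AG 72.2, 84 and 70.1 CPM. The AP2 locus had 54.5, 60.6 and 76.5 CPM, or 32 ± 5.69 RPKM, and counts at a locus do not separate AP2 from AP2m3. CRC, a carpel and nectary gene, was present at 88.8, 138 and 83.3 CPM. Regulators of petals, stamens and carpels were thus counted in each mock library, from apices whose visible primordia had been removed.

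The 24 flowering time genes were more uneven. Of these, 17 were detected, 5 were at trace level, and SPL5 and the TFL1 relative BFT had 0 counts. SPL4, a promoter of flowering targeted by miR156, was the highest of them at 225 ± 52.9 RPKM, with 607, 698 and 503 counts, whereas its close relative SPL3 had 1, 1 and 0 counts. SPL3, SPL5 and BFT share 97.1%, 24.1% and 60.9% of their 50-base words with other, mostly overlapping, loci. The part of shared reads in these low counts was not tested. The mobile flowering signal FT, which is made in leaves, had 1, 0 and 1 counts, and its partner in the apex, FD, had 62, 48 and 29. Of the AP2 relatives targeted by miR172, TOE2 was highest at 12.4 ± 1.98 RPKM, SMZ lay at 2.85 ± 0.652 RPKM and SNZ had 1, 0 and 0 counts.

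Genes of organ polarity and growth were all detected, 18 of 18, led by the abaxial YABBY gene FIL at 119 ± 11.5 RPKM, with YAB5 lowest at 1.76 ± 0.239 RPKM. The adaxial HD-ZIP III gene REV had 162, 165 and 169 CPM and AS1 195, 187 and 195 CPM, among the steadiest regulators measured. Among 10 auxin and organ initiation genes 8 were detected. The response factor MP was highest at 55.4 ± 5.91 RPKM, while the organ founder cell genes DRN and DRNL had 1 and 2 counts over all 3 libraries. Among 10 A-type response regulators of cytokinin 8 were detected, ARR7, a target of WUS, at 55.3 ± 10 RPKM, and ARR17 had 0 counts.

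Transcripts used as markers of other cell types were counted too, which in bulk libraries does not place a cell. Over all loci 63.4% were detected. The stomatal lineage and the xylem and fibre lists were low, with median mean levels of 8.39 and 6.44 CPM. In each of them 2 genes had enough counts for the test of spread. The 6 epidermis genes were all detected, with PDF1, a gene of the outermost layer, at 1061, 1036 and 1095 CPM and 761 ± 21.3 RPKM. The 7 stomatal lineage and 5 phloem genes were all detected, TMM leading the former at 23.5 ± 4.76 RPKM and SUC2, the companion cell sucrose transporter, the latter at 22.1 ± 3.39 RPKM. Of 9 xylem and fibre genes 8 were detected, and the fibre regulator NST3 had 0 counts. All 24 cell cycle genes were detected, CYCD3;2 the highest at 120 ± 21.3 RPKM and CYCB1;3 the lowest at 10.4 ± 2.09 RPKM.

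Root, ovule and seed markers were largely missing, whereas most pollen markers were detected, at low levels. Over all loci 63.4% were detected and 25.3% had 0 counts. Of 10 root genes 8 had 0 counts (PLT1, PLT2, COBL9, RHD6, EXPA7, IRT1, NRT2.1 and CASP1), and CASP2 was the 1 gene detected, with 2, 3 and 2 counts. Of 12 ovule and seed genes 9 had 0 counts (INO, BAN, CRA1, CRC3, SESA1, OLEO1, EC1.1, LEC1 and ABI3), and BEL1, of the ovule integument, was detected with 7, 15 and 24 counts. The sperm cell regulator DUO1 had 0 counts, while 7 of 8 pollen genes were detected, at 7.29 RPKM or less. Stress genes were mixed. Of 8 heat shock genes 4 had 0 counts (HSP17.4, HSP17.6A, HSP23.6 and HSP21), all 20 touch, wound and jasmonate genes had at least 1 count with JAZ7 at 1, 1 and 1, and RD29B, a desiccation gene, had 0 counts while its neighbour RD29A had 713, 637 and 390.

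**Figure D1:**
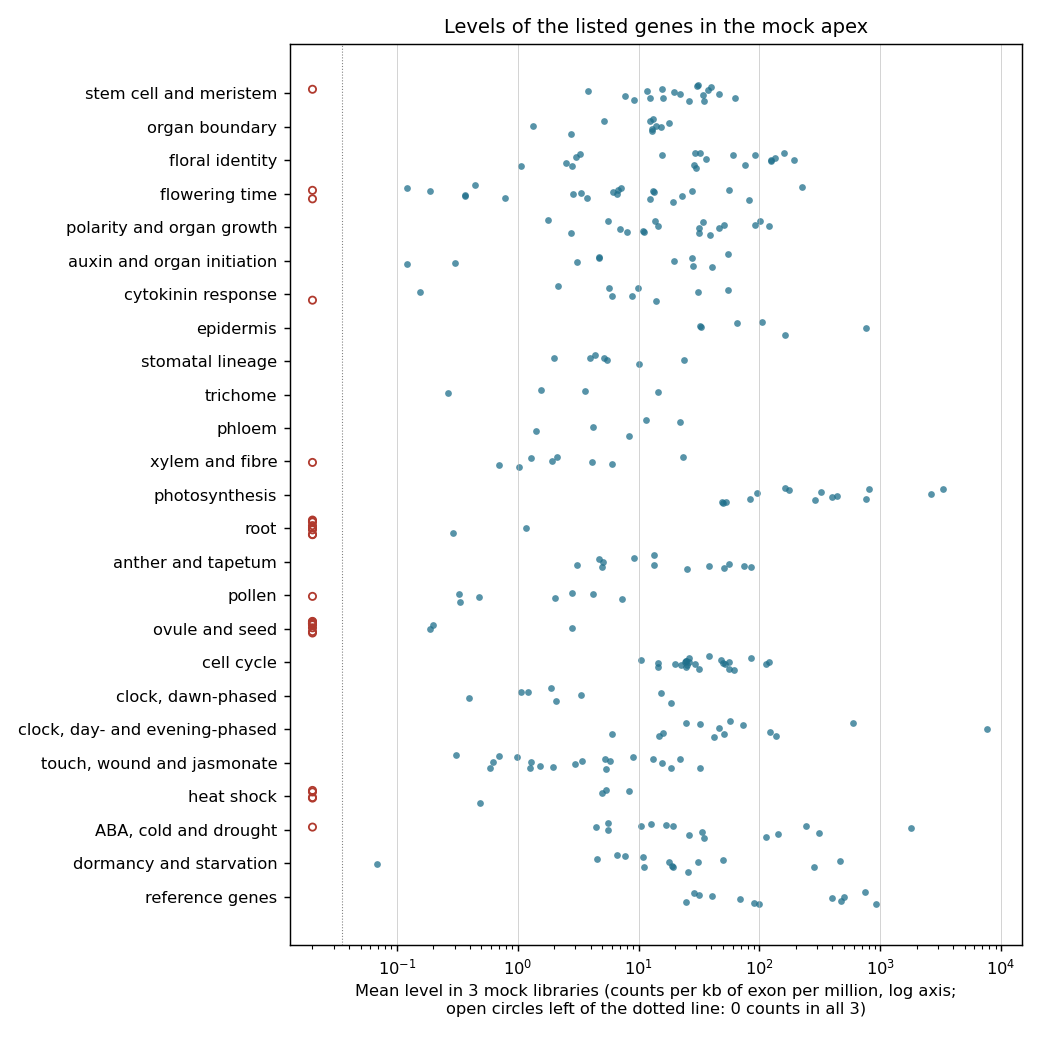
Mean level of each listed gene over the 3 mock libraries, in CPM per kilobase of exon on a log axis, with 1 row of points per gene list; open circles at the left are genes with 0 counts in all 3 libraries. Of 315 genes on the 25 lists 265 were detected and 28 had 0 counts, 8 of them in the root list and 9 in the ovule and seed list.

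Whole families, picked by their annotated names, lay on both sides of the share over all loci, 63.4% detected and 25.3% with 0 counts. The MADS-box and CLE families were detected less often than that, the GRF and ribosomal protein families more often. Of 99 MADS-box loci 41 were detected and 44 had 0 counts, and the 3 highest were SEP2, SEP3 and SEP1. All 9 GRF genes, growth regulators of dividing tissue, were detected, against 12 of 30 CLE peptide genes, of which CLE41 was highest at 42 RPKM. Nuclear loci annotated as ribosomal proteins numbered 285, of which 259 were detected, and held 5.69% to 6.53% of the counts of a library. Their names do not separate cytosolic ribosomal proteins from those of chloroplasts and mitochondria.

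MicroRNA precursors were mostly below detection in these poly(A) libraries: of 178 annotated precursor loci 12 were detected and 127 had 0 counts. The 5 with the highest mean counts were MIR839, MIR162a, MIR159b, MIR824 and MIR414. Their mature sequences in RefSeq (TAIR10.1) are shown, with the seed (bases 2 to 8) in capitals, because they identify which microRNAs these transcripts encode; all 8 seeds differ.
miR839-5p: uACCAACCuuucaucguuccc
miR162a-3p: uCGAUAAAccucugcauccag
miR162a-5p: uGGAGGCAgcgguucaucgauc
miR159b-3p: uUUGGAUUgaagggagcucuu
miR159b-5p: gAGCUCCUugaaguucaaugg
miR824-3p: cCUUCUCAucgauggucuaga
miR824-5p: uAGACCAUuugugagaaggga
miR414: uCAUCUUCaucaucaucguca
The MIR159b locus, whose product targets GAMYB-like factors, had 22, 33 and 20 counts in CT1, CT2 and CT3. MIR162a, whose product targets DICER-LIKE 1, had 17, 35 and 33 counts. MIR824, whose product targets AGL16, had 16, 22 and 22 counts, and MIR839 27, 89 and 29. MIR839 shares 47% of its 50-base words with other loci, so its counts are uncertain. Reads of a precursor transcript do not measure the mature microRNA.

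The mock libraries differed from one another by more than counting noise. For each gene with a mean of at least 20 counts, the 3 counts were compared with the shares expected from the library totals by a Pearson chi-square test, with Benjamini-Hochberg adjustment over all 13918 genes tested. This test compares the libraries, not conditions. At an adjusted p under 0.05, 2850 genes (20.5%) differed. A gene was said to vary when its highest library was also at least 2 times its lowest in CPM, and 548 genes (3.94%) did. The excess spread, which is the coefficient of variation after the part due to counting is taken off, had a median of 8.99% and an upper quartile of 17.8%. The edgeR common dispersion gave a biological coefficient of variation of 14.7%. The same rule within the 3 dexamethasone libraries found 128 of 13793 genes past the chi-square threshold (0.928%) and 35 that varied (0.254%), with a median excess spread of 0% and a coefficient of 4.78%; 22 genes varied within both groups. Whether the groups' spreads differ was not tested. The count for the mock group rested on its outer libraries: it was 89 without CT3, 200 without CT1 and 464 without CT2.

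**Figure D2:**
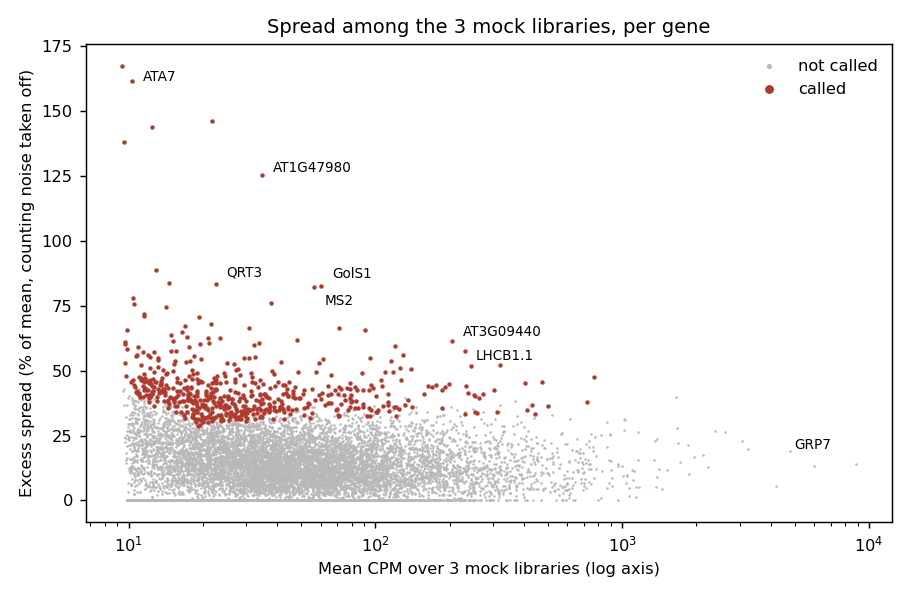
Excess spread among the 3 mock libraries, in percent of the mean, against mean CPM on a log axis, with 1 point per tested gene; red points are the 548 genes that varied and grey points the rest of the 13918. Genes with an excess spread of 0 run along the bottom over most of the range of levels, and GRP7, at the right end, lies at 14%.

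CT1 and CT3 lay at the ends of much of the difference. CT2 lay between the other two in 349 of the 548 varying genes. CT1 was highest and CT3 lowest in 162 (1.16% of the genes tested), and CT3 was highest and CT1 lowest in 187 (1.34%). These 2 sets differed in transcript length. The median exon length was 1169.5 bases in the first, 2716 bases in the second and 1884.5 bases over all tested genes. When the tested genes were put in 10 groups by exon length, the median log2 ratio of CT1 to CT3 ran from 0.37 in the shortest group (median 858 bases) to -0.37 in the longest (median 4078.5 bases). The same medians for pairs of dexamethasone libraries lay between -0.04 and 0.03. When the expected shares were taken within each length group, a setting added after the data were seen, 370 genes varied, of which 308 were among the 548. In 10 groups by exon GC content, the median log2 ratio of CT1 to CT3 was 0.24 in the lowest group and -0.12 in the highest. The source of these trends was not tested.

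**Figure D3:**
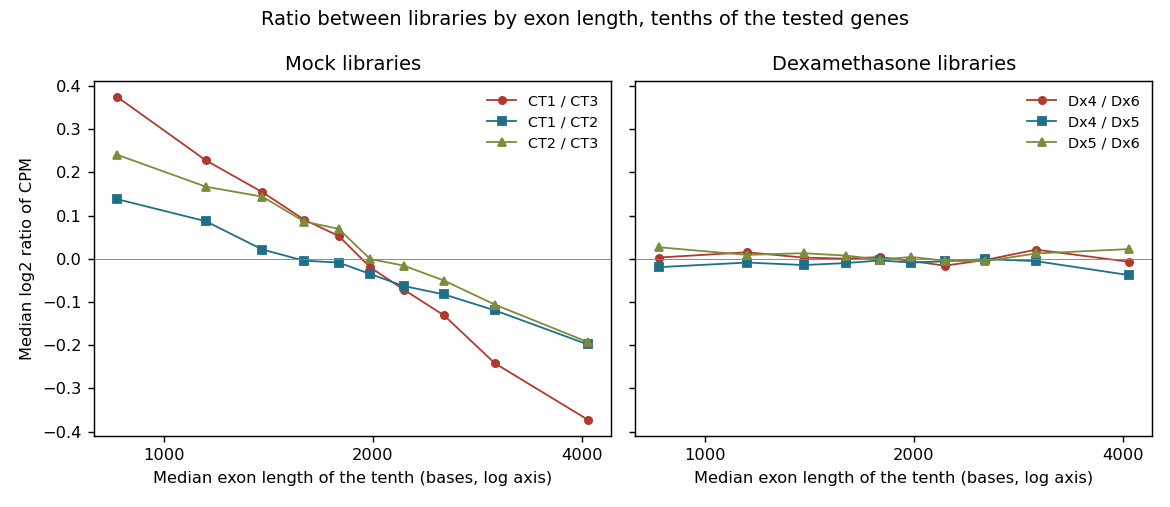
Median log2 ratio of CPM between pairs of libraries in 10 groups of tested genes by exon length (median length in bases, log axis), for the mock libraries at the left and the dexamethasone libraries at the right. The line for CT1 against CT3 runs from 0.37 to -0.37, while the dexamethasone pairs stay between -0.04 and 0.03.

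The anther and tapetum list held the most varying genes of any list, among lists chosen with earlier results of these data known. Counts set beside the share over all genes, here and for the lists below, are thus descriptions and not tests of a list. The tapetum is the cell layer that feeds developing pollen and makes the precursors of its sporopollenin wall. Of its 13 members 12 were detected, and of 9 tested 7 varied, against 3.94% of all genes tested; the median excess spread of the 9 was 46.4%. The regulator AMS had 48.4, 139 and 128 CPM in CT1, CT2 and CT3. The sporopollenin enzyme gene ACOS5 had 58.2, 158 and 163 CPM, and LAP5, a polyketide synthase of the same pathway, 22.6, 74.8 and 79.7 CPM. In all 3 genes CT1 stood well below CT2 and CT3, which were close to each other. LAP6, A9 and the hydroxylase CYP703A2 (6.12, 22.5 and 36 CPM) also had their lowest value in CT1, as did 6 of the 7 varying members (1.8% of all genes tested varied with CT1 lowest). ATA7 differed in pattern, with 2, 0 and 65 counts, so that nearly all of its counts were in CT3. The early anther genes SPL (SPOROCYTELESS) and EMS1, a receptor kinase needed for tapetum identity, did not vary: SPL had 8.57, 14.7 and 13.2 CPM and EMS1 81.4, 103 and 119. The summed level of the list was 307 CPM in CT1, 695 in CT2 and 742 in CT3, and 738, 592 and 424 CPM in the 3 dexamethasone libraries, where 5 of 9 tested members varied among themselves (0.254% of all genes tested there). In a bulk sample, fewer cells of a type and less RNA per cell cannot be told apart. Without CT1, 1 of these members varied between CT2 and CT3, and with expected shares by exon length the count was again 7.

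The genes of largest excess spread, by highest library, included several annotated to the pollen wall or tapetum; they were not a list of their own and have no count. Among genes of at least 20 CPM with CT3 highest, MS2, a fatty acyl reductase of the pollen wall, had 15.9, 45.4 and 107 CPM, and CYP704B1, a hydroxylase of the same pathway, 9.79, 44.1 and 47.8 CPM. ABCG26, the tapetum exporter of wall precursors, had 4.29, 54.6 and 54.6 CPM, and the anther gene ATA20 15.3, 54.2 and 74.2 CPM. Among those with CT2 highest, QRT3, a polygalacturonase that frees pollen from the tetrad, was counted 2, 83 and 62 times. SWEET3 had 11.6, 46.3 and 39.6 CPM, and AT5G26730, a fasciclin-like protein gene, 34.3, 126 and 125 CPM. AT4G20420, annotated as tapetum-specific, had 20.8, 116 and 77.8 CPM, but how far its reads are shared with other loci was not tested. Without CT1, ABCG26, CYP704B1, ATA20, QRT3, SWEET3, AT5G26730 and AT4G20420 did not vary, with ratios of 1.00 to 1.49 between CT2 and CT3, while MS2 did, at 2.35. AT1G47980, a desiccation-like protein gene, had the largest excess spread of those with CT3 highest, 125%, at 12.2, 6.88 and 85.1 CPM.

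Photosynthesis genes varied in opposite orders. Of 15 tested 6 varied, against 3.94% of all genes, with a median excess spread of 31%. The antenna gene LHCB1.1 had 343, 263 and 84.2 CPM, LHCB1.2 290.2, 198 and 110 CPM, and LHCB2.1 86.3, 88.6 and 36.4 CPM. All 3 were lowest in CT3, as were 6 of the 7 antenna (LHC) genes on the list. The share of all tested genes lowest in CT3, varying or not, was not counted. LHCB1.1 shares about 20% of its 50-base words with its near-identical neighbours, so its share of their reads is uncertain. Of the 4 Rubisco small subunit genes 3 ran the other way, lowest in CT1 and highest in CT3. Among them RBCS3B had 282, 381 and 566 CPM and RBCS2B 61.2, 81.2 and 126 CPM. With expected shares by GC content the ratios of these 2 were 1.95 and 1.93 in place of 2.01 and 2.05. Neither varied with that setting, whereas RBCS1B did. The carbonic anhydrase gene CA1 followed them at 163, 270.3 and 387 CPM, though with expected shares by exon length its ratio was 1.84 and it did not vary. RBCS1A, by far the most abundant, had 4403, 4288 and 3956 CPM, so that the summed CPM of the 4 small subunit genes was 4810.3, 4838 and 4773 while that of the antenna genes was 6409, 5805 and 3918. The antenna genes are short, with exon lengths of 1143 to 1406 bases, and the small subunit genes span 935 to 1894 bases. Without CT3 no member of the list varied, and without CT1 2 did.

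Of 24 cell cycle genes tested 3 varied, MCM2, MCM3 and MCM4, subunits of the replicative helicase, against 3.94% of all genes tested and 1.62% with CT3 highest. MCM2 had 52.6, 79.4 and 117 CPM, MCM3 51.4, 65.2 and 108, and MCM4 50.8, 62.9 and 109. All 6 MCM genes were lowest in CT1 and highest in CT3, an order not counted over all tested genes, varying or not. Highest to lowest ratios of the 6 were 1.61 to 2.22. Their exon lengths of 2649 to 3184 bases are above the median of the tested genes, and with expected shares by exon length none of the 24 varied, nor did any without CT1 or without CT3. The mitotic cyclins CYCB1;1 (39.8, 30.3 and 49.6 CPM) and CYCB1;4 (60, 32.1 and 40.5 CPM) passed the chi-square threshold at ratios of 1.64 and 1.87, with CT2 lowest, while the mitotic kinase gene CDKB2;1 had 76.5, 75.7 and 76.5 CPM.

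Clock genes spanned the range from near 0 to the top of the table. The plant clock runs on morning genes such as CCA1 and LHY and on day and evening genes such as PRR5, GI, TOC1 and ELF4, which repress each other in turn. All 14 day and evening genes were detected, against 6 of 8 dawn genes. CCA1 had 14, 11 and 4 counts and LHY 12, 5 and 3, whereas TOC1 had 265, 514 and 487 and GI 169, 318 and 360. The summed level of the dawn list was 161, 121 and 71.9 CPM in CT1, CT2 and CT3, and LNK2, the 1 dawn gene that varied of 2 tested, had 61.8, 50.9 and 21.4 CPM; without CT3 its ratio was 1.21 in place of 2.89 and it did not vary. PRR9 had 9, 5 and 0 counts. Of the 14 day and evening genes PRR5 alone varied, at 122, 103 and 60.1 CPM, and it did not without CT1 or without CT3. A count of 1 in 14 is near the 3.94% of all genes tested. COR27 had 163, 254 and 165 CPM and ELF4 61.8, 93.6 and 72.8 CPM, both highest in CT2, as were 9 of the 14; 10 of the 14 were lowest in CT1. Shares of all tested genes highest in CT2 or lowest in CT1, varying or not, were not counted. The hour at which each sample was collected is not given.

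The evening element AAATATCT, the sequence to which the morning factors bind, was searched on both strands in the 250 bases before the annotated start of each gene. It occurred in 9 of the 14 day and evening windows (64.3%), in none of the 8 dawn windows and in 4.8% of 28008 windows of all loci. The windows of GRP7, the most abundant transcript, and PRR5 are shown 5′ to 3′ on the gene's strand, with each match in capitals, because these genes carry the clock results above; they come from RefSeq TAIR10.1, at chr2:9266558-9266807 (minus strand) and chr5:8358547-8358796 (minus strand).
GRP7: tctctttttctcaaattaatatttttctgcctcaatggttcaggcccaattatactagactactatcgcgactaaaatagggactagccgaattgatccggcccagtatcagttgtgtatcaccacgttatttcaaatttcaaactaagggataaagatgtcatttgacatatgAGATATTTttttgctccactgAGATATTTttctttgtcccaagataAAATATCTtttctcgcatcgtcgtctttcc
PRR5: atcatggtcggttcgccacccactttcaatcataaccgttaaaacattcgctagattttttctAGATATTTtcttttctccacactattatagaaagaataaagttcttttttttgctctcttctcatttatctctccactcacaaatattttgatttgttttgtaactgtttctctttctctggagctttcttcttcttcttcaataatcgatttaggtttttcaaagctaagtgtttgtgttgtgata
The window of GRP7 held 3 matches and that of PRR5 held 1. A match describes these letters only. The G-box CACGTG, searched in the same way, occurred in 22 of the 162 windows of genes with CT1 highest and CT3 lowest (13.6%). It occurred in 12 of 186 windows of genes with CT3 highest and CT1 lowest (6.45%) and in 6.45% of all windows. With CT2 highest, the G-box had 1.59% (CT1 lowest) and 7.79% (CT3 lowest), and the evening element 7.94% and 9.09%. For CT1 highest with CT3 lowest, and for the reverse order, the E-box CANNTG occurred in 61.7% and 53.8%, against 55.3% of all windows. There the evening element had 5.56% and 4.3%, against 4.8%, and the heat shock element GAANNTTC 9.26% and 9.14%, against 9.52%. All windows include untested genes, and these shares were not tested.

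Most tested genes on the lists of abscisic acid, cold and drought, and of bud dormancy and starvation, were lowest in CT3. How many of all tested genes were lowest in CT3, varying or not, was not counted. In the first list 15 of 16 were detected, 11 of 13 tested were lowest in CT3, and 3 varied, all of them lowest in CT3 (1.75% of all genes tested varied with CT3 lowest). RD29A, a classic target of cold and drought factors, had 436, 292 and 178 CPM. ABF3, an abscisic acid response factor, had 55.1, 43.1 and 24.6 CPM, and NCED3, the rate-limiting enzyme of abscisic acid synthesis, 24.5, 10.6 and 10.5. In the dormancy list 13 of 14 were detected, 10 of 11 tested were lowest in CT3, and 3 varied: DRM1 at 491, 563 and 276 CPM, the raffinose synthase gene DIN10 at 66.7, 115 and 57.4, and SEN1 at 21.4, 14.2 and 7.74. SEN1 did not pass the chi-square threshold with expected shares by exon length, at a ratio of 2.40 in place of 2.77. BRC1, the regulator that keeps axillary buds dormant, had 0, 1 and 0 counts. With TMM or DESeq2 scaling 1 of the dormancy genes varied, since the ratios of DRM1 and DIN10 moved from 2.04 and 2.00 to just under 2, the lowest being 1.94. Without CT2 1 of them varied and without CT3 0. Without CT1 none of the abscisic acid, cold and drought genes varied, and without CT3 1 did. GolS1, an enzyme of the same raffinose pathway as DIN10, was the most variable gene with CT1 highest, at 116, 44.1 and 20 CPM. Others in that group were the lipid transfer genes LTP4 (212, 98.7 and 76.5 CPM) and LTP3 (187, 91.3 and 68.7 CPM) and the thionin THI2.2 (46.5, 27.5 and 13.7 CPM).

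A few meristem and flowering regulators varied as well, and all 5 of them were highest in CT1 (1.28% of all genes tested varied with CT1 highest). LFY had 55.1, 36.3 and 26.9 CPM, a ratio of 2.05 with an adjusted p of 0.00059 in the chi-square test. TFL1 had 35, 16 and 13 counts, or 21.4, 7.34 and 5.92 CPM, so CT1 stood apart from the other two. FD had 38, 22 and 13.2 CPM, and its paralog FDP 52.6, 26.2 and 32.8. PNF, a homeodomain partner of STM, had 24.5, 15.1 and 11.8 CPM. These were 3 of 12 tested flowering time genes, 1 of 14 floral identity genes and 1 of 17 stem cell and meristem genes. Over all genes tested 3.94% varied, and the counts of 1 in 14 and 1 in 17 are near that share. No gene varied of 7 tested in the boundary list, 16 in the polarity list, 6 in the auxin list, 5 in the cytokinin list and 6 in the epidermis list. In lists this small, these counts too are near the share over all genes tested. Without CT1, LFY, PNF, FD and FDP did not vary, and TFL1 had too few counts to be tested. Without CT3, LFY, PNF and FD did not (ratios of 1.52, 1.62 and 1.72), and without CT2 FDP did not (1.61). With expected shares by exon length LFY and FDP had ratios of 1.88 and 1.93 and did not vary, nor did PNF and FDP with shares by GC content (2.01 and 1.97), nor PNF in a negative binomial test. TFL1, at a ratio of 3.62, varied with every other setting tried except a minimum of 50 counts, where it was not tested.

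In the opposite direction, both xylem genes tested varied, against 3.94% of all genes tested. XCP2, a peptidase of dying vessel cells, had 19, 22.9 and 55.1 CPM, and CESA4, a cellulose synthase of the secondary wall, 9.79, 11 and 25.5. Neither varied without CT3. The related CESA8, too low to test, had 4, 5 and 32 counts. The calmodulin-like touch gene TCH3 (9.79, 9.18 and 22.3 CPM) and the trichome regulator GL2 (9.18, 7.8 and 17.3 CPM) were likewise highest in CT3. Each was the 1 gene of its list that varied, of 7 tested in the touch list and 2 in the trichome list. Over all genes tested 1.62% varied with CT3 highest, and neither small list was tested against that share. GL2 did not vary with expected shares by exon length (ratio 1.91) or by GC content, in a negative binomial test, at a minimum mean of 1 count or without CT2 (1.88). AT3G09440, an HSP70 chaperone gene, had 111, 154 and 346 CPM, while HSP101 of the heat shock list had 16.5, 18.4 and 15.5.

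**Figure D4:**
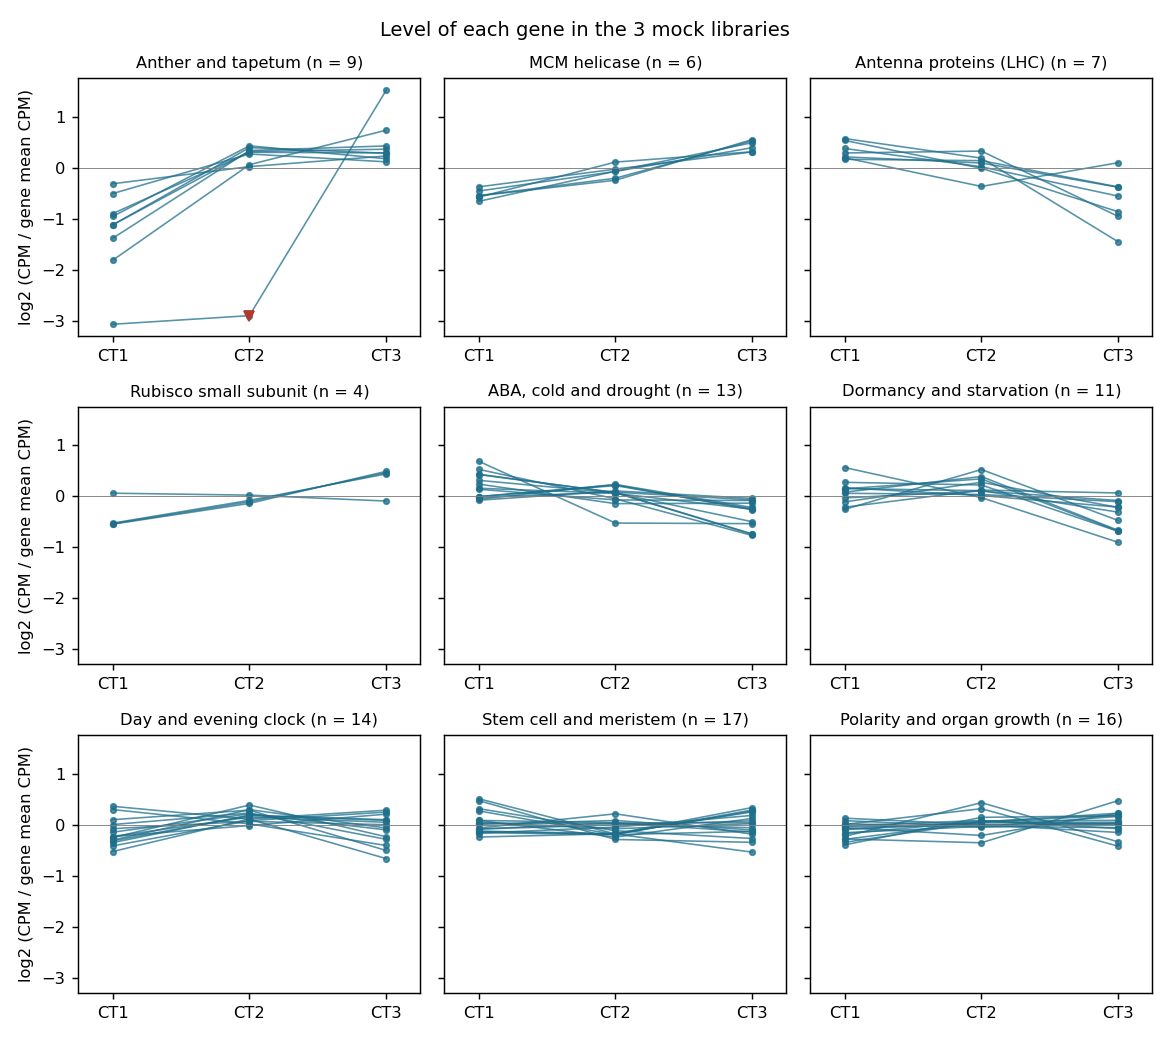
Level of each tested gene in CT1, CT2 and CT3 as log2 of its CPM over its own mean CPM, 1 line per gene, in 9 groups; the red triangle marks ATA7 in CT2, where it had 0 counts and is drawn at 3 counts. Of the 9 anther and tapetum genes 8 are lowest in CT1, and 6 of 7 antenna genes sit low in CT3. These orders were not counted over all tested genes. Of the stem cell and polarity genes PNF alone varied.

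None of the 12 reference genes varied, which for a list this small is near the 3.94% of all genes tested. Their median excess spread was 7.71%, beside 8.99% over all genes tested. ACT2 (245, 233 and 243 CPM), UBQ10 (959, 981 and 948 CPM), TIP41 and UBC21 had an excess spread of 0%. SAND and EF1A, also used as references, ranked above 77.1% and 74.4% of the tested genes in excess spread. The steadiest genes of at least 200 CPM were ARF1, an ADP-ribosylation factor of vesicle traffic (203, 203 and 203 CPM), the histone deacetylase HD1 (221, 219 and 221 CPM), AT2G05790 (439, 434 and 432 CPM), the ribosomal protein genes RPL4, emb2394, RPL5B, AT2G31610 and EMB3137, AT4G39680 and the elongation factor subunit AT1G57720. Their highest to lowest ratios were between 1.00 and 1.03.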

How the data were processed

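Poly(A) RNA libraries of 3 mock and 3 dexamethasone apices were described. The authors deposited raw counts of reads per locus, made with HTSeq per the table's name; TopHat, Bowtie, RSEM and Cufflinks are named in the submitters' processing notes, with no version or role. The sources used here do not give the build, annotation or strand setting of the counting. Of the table, 3 blank lines were dropped. Names, exon lengths, overlaps and windows came from RefSeq TAIR10.1, which held 28009 of the 28775 loci. CPM used library totals. Genes with a mean of at least 20 counts were tested with a Pearson chi-square (scipy 1.17.1); dispersion came from edgeR 4.0.16, and TMM (edgeR) and DESeq2 1.42.0 size factors were alternatives. The method was run on simulated counts that held only counting noise and set changes in single libraries. Such counts cannot show how it performs on libraries with more spread than counting noise. Named genes were the 20 most abundant; the extremes, silent and varying members of each list; the 10 most variable genes (at least 20 CPM) for each highest library; the 10 steadiest; and 5 microRNA precursors; other list members shown as examples were chosen after their values were seen. Of 371 such genes and list members, 33 share over 20% of their 50-base words with other loci. The lists were chosen with earlier results of these data known. Expected shares by exon length and by GC content were added after the data were seen. Totals of 1633571 to 2196781 counts per mock library limit the precision, and limits from counts of 0 cover counting error only. The upstream sequence of 1 clock gene is not reported here.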

Additional observations from a re-analysis of the deposited data

How the results depend on the processing

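Of 548 genes that varied among mock libraries, the count became 270 at a minimum mean of 50 counts, 1836 at a ratio of at least 1.5, 87 at a ratio of at least 3, and 89 to 464 when each library was left out. TMM and DESeq2 scaling gave 552 and 550 genes, 522 and 527 of them shared. Expected shares by GC content gave 484. Median excess spread was 0% to 8.72% with a library left out. The dexamethasone count of 35 was 8 to 26. Of the 20 most abundant genes, 13 were kept without length correction and 17 to 20 with a library left out. At a ratio of at least 3, list counts were 3 (anther and tapetum), 1 (photosynthesis), 1 (flowering time), 0 (cell cycle), 0 (abscisic acid, cold and drought) and 0 (dormancy). At a ratio of at least 1.5, flowering time had 6 and cell cycle 8; at a minimum of 50 counts flowering time had 1. TMM and DESeq2 each left 1 dormancy gene, and expected shares by exon length left 0 cell cycle genes. With each library left out, the ranges were 1 to 7 (anther and tapetum), 0 to 6 (photosynthesis), 0 to 3 (flowering time), 0 to 3 (cell cycle), 0 to 4 (abscisic acid, cold and drought) and 0 to 2 (dormancy). The ratio and minimum settings change the rule itself; the cause of the other changes was not tested. Of 59 named genes that varied, 23 did so without CT1 (35 did not), 26 without CT3 (29 did not), 52 without CT2, 26 at a ratio of at least 3, 51 with expected shares by exon length, 52 by GC content, and 57 each with TMM, DESeq2 or a negative binomial test using the dexamethasone dispersion trend. Detected loci numbered 18231 to 18434 with a library left out. No paired analysis was possible because 1 group was described and its columns carry no pairing.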
